A study of Nematostella vectensis with 10 samples.

Results

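The body of the *Nematostella vectensis* planula was compared between 2 ages, using 5 of the 10 libraries of the series. All 5 came from the larval body tissue, which is what remained of the larva after the apical tip with its sensory organ had been cut off by hand. The 2 mid-planula body libraries (labelled planula) were from larvae of about 50 to 60 h post fertilisation, and the 3 late planula body libraries from larvae of about 75 to 85 h. The larvae were untreated in both groups, and by the methods of the study each sample pooled tissue of many larvae from several batches. The labels do not tie a library to a culture, so the p-values measure the spread between these pools. The other 5 libraries, 2 mid-planula and 3 late planula apical pieces, entered the fit and the filter on low counts, and gave the apical levels and stage changes set beside those of the body.

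The planula of this sea anemone is a ciliated swimming larva that settles and turns into a polyp. The apical organ marks its front end, and the body piece carries the outer ectoderm, the inner gastrodermis, and the pharynx and mesenteries that form the gut of the polyp. Neuropeptide precursors, which are cut and amidated into small signalling peptides, mark much of the cnidarian nervous system. Gland cells of the pharynx and mesenteries secrete digestive enzymes. Since the samples are bulk tissue, fewer cells of a type and less RNA per cell cannot be told apart in any result below.

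The files hold the reads counted per gene model (NVE identifiers). They do not pair identifiers with names, and no identifier matched the RefSeq gene table, so genes carry a name only where the study names them. The body libraries held 16702779 to 27730410 counts (median 20227306), and 23057 to 23539 gene models were detected in every one but late planula body replicate 1, the shallowest, with 22155. Replicates of a stage differed by far more than sampling noise (chi-square over its degrees of freedom, 44.7 to 93.3), so none was counted as a copy of another. Levels are counts per 1000000 (CPM) after TMM scaling (trimmed mean of M-values), a method that assumes that most genes do not differ. A count of 3 was taken as the lowest level a library can show (0.109 to 0.217 CPM), which covers counting error only. Differential expression was called where the quasi-likelihood test of edgeR gave a p-value under 0.05 after Benjamini-Hochberg adjustment over the 21683 gene models tested, and such genes are termed differentially expressed genes (DEGs).

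The composition of the body libraries differed by stage, and late planula body replicate 2 was nearest to the mid-planula libraries. The TMM factors were 1.27 and 1.10 in mid-planula body replicates 1 and 2, and 0.828, 1.07 and 0.923 in late planula body replicates 1, 2 and 3. The 100 largest gene models of each library held 30.7% and 32.2% of its counts in the mid-planula, against 42.6%, 36.3% and 41.7% in the late planula. By both measures the stages did not overlap, and replicate 2 was the late planula library closest to the younger larvae. Pearson's r of its log2 CPM with the mid-planula libraries, across genes, was 0.938 and 0.922. It was 0.884 and 0.912 for replicate 1, and 0.924 and 0.925 for replicate 3. By r, replicate 2 was thus nearest to mid-planula body replicate 1, while replicate 3 was slightly nearer to mid-planula body replicate 2.

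**Figure D1:**
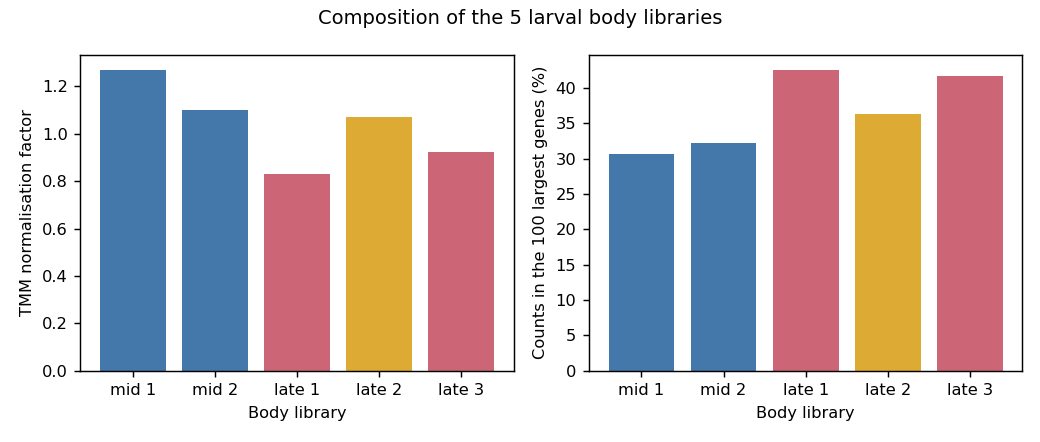
TMM normalisation factor (left, no unit) and percentage of counts in the 100 largest gene models (right) for each body library, one bar per library, with mid-planula in blue, late planula replicates 1 and 3 in red and replicate 2 in yellow. The late planula libraries have the lower factors (0.828 to 1.07 against 1.10 and 1.27) and the larger shares (36.3% to 42.6% against 30.7% and 32.2%).

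The most strongly expressed gene models of the body took up more of the late planula libraries. The 100 gene models with the largest mean share over the 5 body libraries held 30.0% and 31.6% of the counts in the mid-planula, and 42.0%, 36.0% and 41.4% in the late planula. This choice leans towards genes that are high in the late planula, which has more of the libraries. Of these, 90 had a log2 fold change (late over mid-planula) above 0 and the median was 0.53, where the median of all tested gene models was -0.0065. In 51 of them all 3 late planula libraries lay above both mid-planula libraries, compared with 18.6% of all tested gene models. Of the 100, 6 were DEGs, all higher in the late planula, where 1.99% of all tested gene models were higher. Before adjustment, 30 were higher and 0 lower with an edgeR p-value under 0.05, against 2181 and 1596 of all 21683 tested. When the 100 were chosen in the mid-planula libraries alone, which leans the other way, 90 of them were the same. Of this choice, 84 had a log2 fold change above 0, and the median was 0.49. In every late planula library, 42 lay above and 3 below the mid-planula range. There were 3 DEGs, all higher, and 22 were higher and 2 lower at an unadjusted p-value under 0.05 in edgeR. The gene model with the largest share of all had 11000 and 18600 CPM in the mid-planula body and 52700, 27700 and 38700 CPM in the late planula body. It was higher in every late planula library, but the difference did not pass (log2 fold change 1.42, standard error, SE, 0.41, edgeR adjusted p = 0.0835).

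Between the stages, 572 gene models were DEGs in the body, which is 2.64% of those tested. A total of 431 were higher (1.99%) and 141 were lower (0.65%) in the late planula. The risers had a median log2 fold change of 1.98, or 3.95-fold, with an interquartile range of 1.53 to 2.76, and 212 of them rose at least 4-fold. Under TMM the decreases were smaller, with a median of -1.37 (2.58-fold) and an interquartile range of -1.59 to -1.18, and 12 of them were at least 4-fold. Before adjustment, 3777 gene models had a p-value under 0.05. Without regard to the test, the 3 late planula libraries lay above both mid-planula libraries in 18.6% of the tested gene models and below both in 17.6%.

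How the increases and decreases divide depended on the scaling. Of the DEGs, 75.3% were higher in the late planula with TMM, and DESeq2's size factors or upper-quartile factors gave 78.2% and 76.7%. Scaling by total counts alone moved the median log2 fold change of all genes to -0.34 and gave 216 higher and 464 lower DEGs, so that 31.8% were higher. That shift also lowers the increases and deepens the decreases, whose sizes were compared under TMM only. All 572 DEGs kept their direction under each of these scalings. The count also rested on single libraries. There were 380 DEGs without late planula body replicate 2, 78 without replicate 3, 55 without mid-planula body replicate 1 and 0 without mid-planula body replicate 2, where 2613 gene models had an unadjusted p-value under 0.05 in edgeR and no other tool was run. Leaving out a mid-planula library leaves 1, which is then assumed to vary like the other groups. In each of these 4 fits all the DEGs that were still tested kept their direction. This could hardly be otherwise, because in every DEG all late planula libraries lay beyond both mid-planula libraries.

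**Figure D2:**
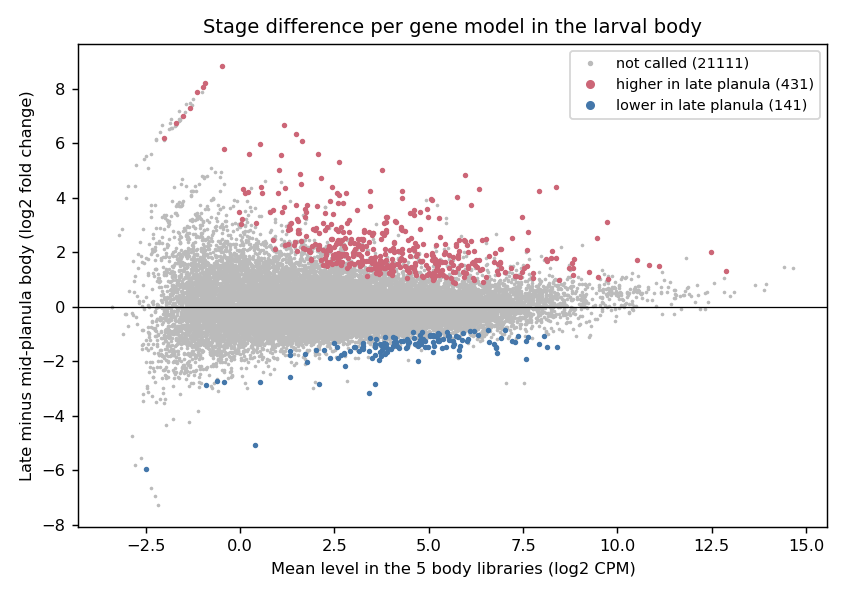
Log2 fold change of late over mid-planula body (y axis) against the mean level over the 5 body libraries in log2 CPM (x axis), one point per gene model. Under TMM, the 431 DEGs that were higher in the late planula (red) spread further from 0 than the 141 that were lower (blue). Their medians were 1.98 and -1.37, and fitted values at the left edge rest on few counts.

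DEGs were found at most levels of expression but seldom among the lowest. When the gene models were divided by mean level into 4 bins of equal size, the lowest bin (below 0.78 log2 CPM) had the fewest. There 20 were higher and 6 were lower in the late planula, which is 0.369% and 0.111% of that bin. In the highest bin (above 4.45 log2 CPM), 164 were higher and 73 were lower, which is 3.03% and 1.35% of that bin. At the lower limit of detection, 82 gene models had no more than 3 counts in either mid-planula body library and more than 3 in all 3 late planula body libraries. Of the 82, 9 were DEGs, where 1.99% of all tested gene models were higher. The 82 had low levels when present, with medians of 0.759, 0.767 and 0.704 CPM in late planula body replicates 1, 2 and 3. The choice itself required counts in every late planula library. In the opposite direction there were 29 gene models, where 0.65% of all tested gene models were lower. Of the 29, 1 was a DEG, the apical organ gene *NVE10492* described below.

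Among DEGs with a mean level of at least 1 log2 CPM over the 10 libraries, those with the largest increases had no name in the files or the study. *NVE24163* had 6 counts in mid-planula body replicate 1 and 0 in replicate 2, against 238, 241 and 234 counts in the late planula body libraries. This corresponds to 17.2, 11.6 and 9.15 CPM in the late planula, so that replicate 2 lay between the other late planula libraries and no library overlapped between the stages (log2 fold change 6.69, SE 0.92, edgeR adjusted p = 0.00715). The call was lost without mid-planula body replicate 2 (adjusted p = 0.101) and with replicate 2 as the only late planula body library (0.11), and with single libraries left out the fitted log2 fold change ran from 5.82 to 10.98. *NVE15947* was the next largest, at 0.253 and 0.134 CPM in the mid-planula and 7.16, 8.53 and 33.5 CPM in the late planula (log2 fold change 6.34, SE 1.32, edgeR adjusted p = 0.0280). Its level in late planula body replicate 3 was well above that of replicates 1 and 2. The call was lost without replicate 3 (edgeR adjusted p = 0.112) and in limma-voom (adjusted p = 0.085). It was also lost without mid-planula body replicate 1 or 2, and with replicate 2 as the only late planula body library. The log2 fold change ran from 5.1 to 6.87 over 15 alternatives, of which 10 called the gene.

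Among the decreases, *NVE3277* had 7.38 and 12.1 CPM in the mid-planula body and 0.434, 0.383 and 0.0782 CPM in the late planula body. All 3 late planula libraries, including replicate 2, were far below both mid-planula libraries (log2 fold change -5.08, SE 0.74, edgeR adjusted p = 0.00786). It was also a DEG in the apical tissue, where the mean was 5.89 CPM in the mid-planula and 0.276 CPM in the late planula (log2 fold change -4.44, edgeR adjusted p = 0.0168). The body call was lost without mid-planula body replicate 2 (adjusted p = 0.101) and with replicate 2 as the only late planula body library (0.145).

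Late planula body replicate 2 was checked against genes called without it. When it was left out of the fit, 305 gene models were called higher and 75 lower in the late planula. In the omitted library, 304 of the 305 (99.7%) lay above the mid-planula mean and 74 of the 75 (98.7%) below it. Their median difference from the mid-planula mean was 1.75 log2 CPM in replicate 2 and 2.20 in the mean of replicates 1 and 3 for the increases, and -1.12 and -1.56 for the decreases. Per gene, replicate 2 showed a median of 0.825 of the increase and 0.59 of the decrease seen in the other late planula libraries. The mid-planula libraries are the same on both sides of this comparison, so their own deviations are shared and place a library on the same side more often. A library that took no part in the call can also be smaller by the choice of genes alone.

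**Figure D3:**
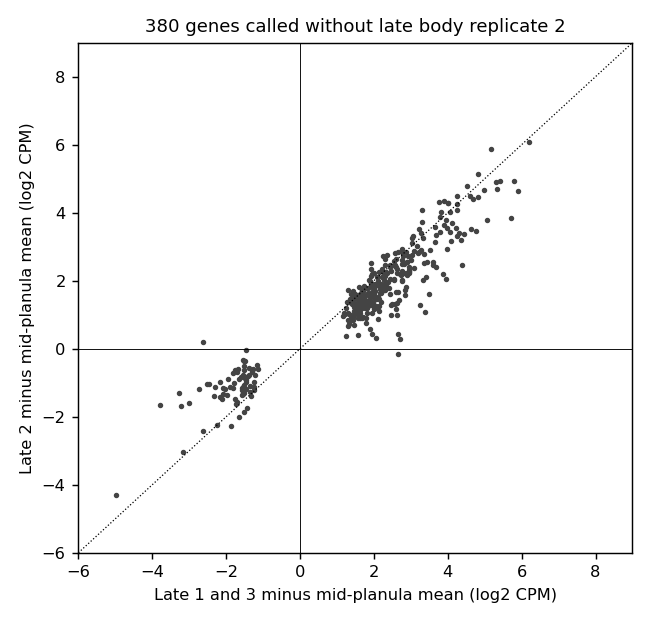
Difference from the mid-planula body mean in late planula body replicate 2 (y axis, log2 CPM) against that in the mean of replicates 1 and 3 (x axis, log2 CPM), for the 380 gene models called with replicate 2 left out. Nearly all points lie in the upper right and lower left, and more lie on the side of the dotted line of equality towards 0, with a median of 0.825 of the increase and 0.59 of the decrease.

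The other late planula libraries were compared in the same way. With replicate 1 left out, 409 of 412 higher and 145 of 146 lower gene models lay on the same side in it, with medians of 0.909 and 0.628 of the differences in the others. With replicate 3 left out there were 75 higher and 3 lower gene models, all of them on the same side in replicate 3, with medians of 1.04 and 0.999. The smaller differences were thus seen in replicates 1 and 2 and not in replicate 3, for which far fewer genes were called. Among the 431 genes that rose, replicate 2 was the late planula library nearest to the mid-planula mean in 211, replicate 1 in 153 and replicate 3 in 67. Among the 141 that fell, the numbers were 63, 62 and 16. No DEG had replicate 2 within or across the range of the mid-planula libraries. Replicate 2 took part in calling these DEGs, so this is not an independent check.

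Neuronal genes were taken from those the study had picked and named with these libraries in hand, so the lists are not independent evidence. Of 7 neuropeptide precursor genes, 1 rose in the late planula body and the other 6 did not pass the test, where 1.99% of all tested gene models were higher. The log2 fold change was above 0 for 6 of the 7 under TMM, the median was 0.95 (all genes -0.0065), and 3 had an unadjusted p-value under 0.05 in edgeR. In 4 of them all late planula libraries lay above both mid-planula libraries (18.6% of all genes). DESeq2 and limma-voom each called 2. *PRGamide* and *Nv-RPamide III*, described below, are among the 7 and had higher means in the apical tissue than in the body at both stages. The 7 include *NVE3755* and *NVE3775*, which share a name in the study. Whether both are neuropeptide genes could not be checked.

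*Nv-LWamide* (*NVE9858*) encodes the precursor of LWamide peptides, which in hydrozoan larvae can trigger metamorphosis. Its level was 15.4 and 10.2 CPM in the mid-planula body and 37.0, 42.2 and 38.0 CPM in the late planula body. The late planula libraries lay close together, with replicate 2 the highest, and were clear of the mid-planula range. The means were 12.8 ± 3.72 (SD, n = 2) and 39.1 ± 2.75 CPM (SD, n = 3), which gave 1.61 on the log2 scale (SE 0.35, edgeR adjusted p = 0.0316). The gene rose in the apical tissue as well, from a mean of 2.35 to 8.37 CPM (log2 fold change 1.81, edgeR adjusted p = 0.0302). In the body the difference no longer passed without late planula body replicate 2 or 3 (edgeR adjusted p = 0.0635 and 0.112). The same held with total counts for scaling (0.0818) and with the replicate block (0.136), which goes by number and is no known pairing. It also did not pass in the fits that left 1 library in a stage. There the log2 fold change was 1.94 and 1.34 without mid-planula body replicate 1 or 2, and 1.72 with replicate 2 as the only late planula body library. It stayed between 1.26 and 1.94 over 16 alternatives, of which 9 called the gene.

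*Antho-RFamide type 2* (*NVE7549*) encodes a precursor of RFamide peptides, which are widespread in cnidarian neurons. It had 37.0 and 56.1 CPM in the mid-planula body and 246, 83.0 and 157 CPM in the late planula body. All late planula libraries were above both mid-planula libraries, replicate 2 being the lowest of them. The log2 fold change of 1.80 did not pass (SE 0.46, edgeR adjusted p = 0.0569). Without replicate 2 it passed, at 2.12 with an adjusted p-value of 0.0244, and the adjusted p-value ranged from 0.00263 to 0.621 over 16 alternatives.

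The other neuropeptide precursors did not pass the test. *Nv-RPamide III* (*NVE3755*) had 21.7 and 8.41 CPM in the mid-planula body and 26.6, 35.5 and 25.5 CPM in the late planula body, with replicate 2 the highest. The groups did not overlap but mid-planula body replicate 1 was near the late planula range, and the difference did not pass (log2 fold change 0.95, edgeR adjusted p = 0.219). *NVE3775*, which the study also calls *RPamide III*, had 12.9 and 15.1 CPM against 14.6, 8.24 and 9.73 CPM, with overlap. The identifiers are much alike, and whether both belong to this name could not be checked. For *PRGamide* (*NVE226*), late planula body replicate 1 stood apart at 193 CPM, while replicates 2 and 3 had 55.3 and 73.3 CPM and the mid-planula libraries 69.0 and 75.6 CPM. Without replicate 1 its log2 fold change turned from 0.57 to -0.17. In the mid-planula and late planula apical tissue the means were 293 and 357 CPM for *PRGamide* and 94.8 and 135 CPM for *NVE3755*. For *NVE3775* they were 12 and 7.56 CPM. The study describes *PRGamide* and *RPamide III* as found only in the apical tissue. For *PRGamide* and *NVE3755*, remaining apical tissue and expression in the body itself cannot be told apart. *HIRamide* (*NVE15069*) overlapped between the stages, at 33.2 and 21.4 CPM against 31.8, 53.9 and 26.4 CPM, and here replicate 2 was the highest of the 5 libraries. The tachykinin-related precursor *NVE15507* was low, with 16 to 44 counts a library, at 0.724 and 0.716 CPM against 1.74, 1.49 and 1.72 CPM. Its stages did not overlap, and the difference did not pass (edgeR adjusted p = 0.554).

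None of the 8 transmitter receptor and enzyme genes was a DEG in edgeR, although 2 were higher at an unadjusted p-value under 0.05 and DESeq2 and limma-voom each called 1. The median log2 fold change was 0.61 (all genes -0.0065). In 4 of the 8 all late planula libraries lay above both mid-planula libraries, compared with 18.6% of all genes. The metabotropic glutamate receptor *NVE2150*, a G protein-coupled receptor (GPCR) for glutamate, had 8.29 and 6.04 CPM in the mid-planula body and 13.2, 17.4 and 16.7 CPM in the late planula body. Replicate 2 was the highest, and the log2 fold change was 1.14 (SE 0.35, edgeR adjusted p = 0.0997). The gene was called by DESeq2 (adjusted p = 0.0209) and limma-voom (adjusted p = 0.0383), and the adjusted p-value ranged from 0.0209 to 0.462 over 16 alternatives.

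The cholinergic receptor *NVE26207*, which binds acetylcholine, had 14.5 and 20 CPM against 28.2, 26.0 and 30.7 CPM (log2 fold change 0.71, edgeR adjusted p = 0.198). Its apical means were higher, at 65 CPM in the mid-planula and 81.8 CPM in the late planula. The dopamine receptor *NVE3835* was at 8.90 and 8.19 CPM in the mid-planula and at 14.2, 16.0 and 14.6 CPM in the late planula (log2 fold change 0.80, edgeR adjusted p = 0.418), and the GPCR *NVE20518* at 6.37 and 4.07 CPM against 10.4, 14.9 and 13.4 CPM (log2 fold change 1.30, edgeR adjusted p = 0.389). In each of these 3 genes the stages did not overlap and replicate 2 was on the late planula side. For the GABA receptor *NVE5469*, the decarboxylase *NVE18494*, the dopamine receptor protein *NVE19409* and the rhodopsin-family receptor *NVE334* the stages overlapped and replicate 2 lay within the mid-planula range. Their log2 fold changes under TMM were 0.50, 0.02, 0.03 and -0.12, and those of *NVE18494* and *NVE19409* turned to -0.31 and -0.31 when scaled by total counts.

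**Figure D4:**
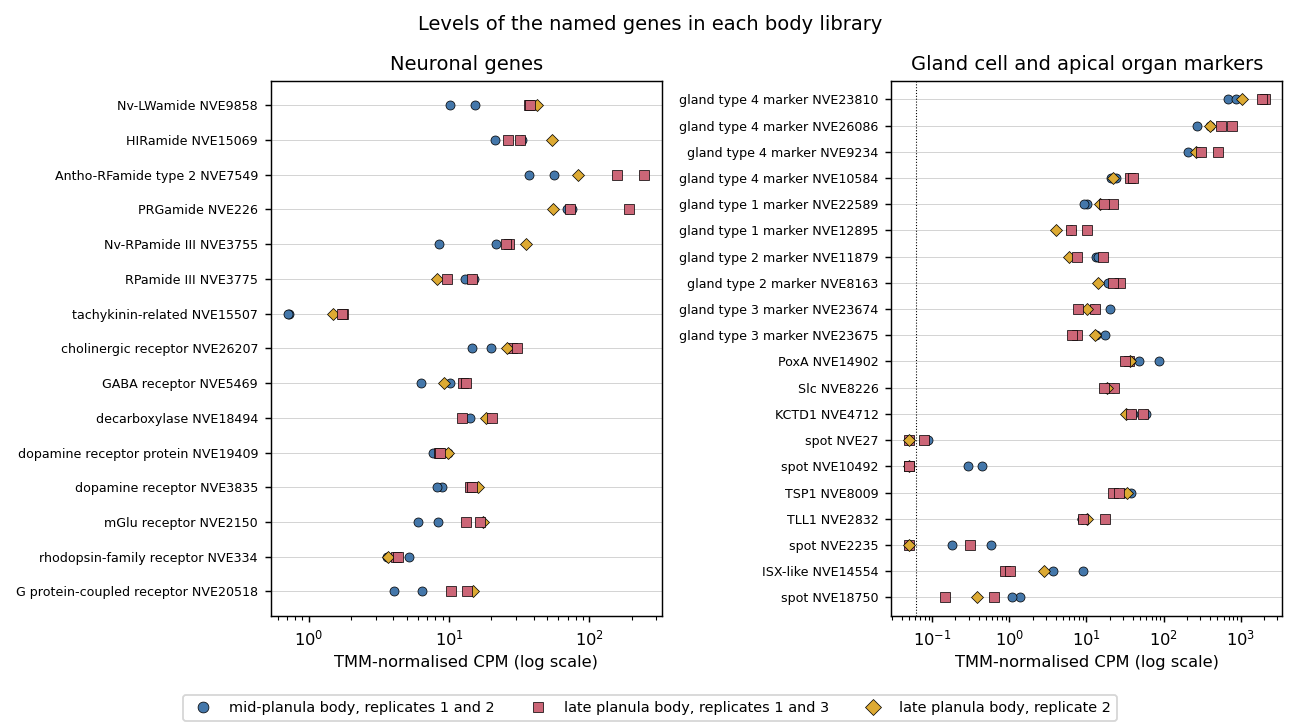
TMM-normalised CPM (x axis, log scale) of 15 neuronal genes (left) and 20 gland cell and apical organ markers (right) in the 5 body libraries, with mid-planula as blue circles, late planula replicates 1 and 3 as red squares and replicate 2 as yellow diamonds. Points left of the dotted line are libraries with 0 counts, and some points cover others. For *Nv-LWamide* the late planula libraries (37.0 to 42.2 CPM) are clear of the mid-planula libraries (10.2 and 15.4 CPM), while for the gland type 4 markers replicate 2 lies near the mid-planula libraries.

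Gland/secretory-cell type 4 is the type found in the pharynx and mesenteries, and its 4 marker genes are a check of the body label. They summed to 1180 to 3370 CPM in the body libraries. In the apical libraries they summed to 7.51 to 25.3 CPM in the mid-planula and 6.63 to 9.75 CPM in the late planula. None was a DEG between the stages in edgeR, DESeq2 or limma-voom, and none had an unadjusted p-value under 0.05 in edgeR. All 4 had a log2 fold change above 0 under TMM (median 0.66). The sum was 1180 and 1590 CPM in the mid-planula body and 3370, 1730 and 2810 CPM in the late planula body, so that replicate 2 was just above the mid-planula libraries and the other late planula libraries well above them.

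The strongest difference of the 4 was that of *NVE23810*, with 681 and 877 CPM in the mid-planula and 2050, 1050 and 1910 CPM in the late planula (log2 fold change 1.10, SE 0.77, edgeR adjusted p = 0.512). It was the only type 4 marker in which the stages did not overlap. For *NVE26086* (275 and 400 against 776, 400 and 561 CPM), *NVE9234* (205 and 287 against 507, 261 and 307 CPM) and *NVE10584* (21.0 and 24.3 against 37.3, 22.1 and 40.1 CPM), replicate 2 fell within the mid-planula range, and replicates 1 and 3 were above it. With replicate 2 as the only late planula body library, *NVE10584* turned from a log2 fold change of 0.55 to -0.04. No type 4 marker passed the test without replicate 2 or under any other alternative.

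Gland/secretory-cell types 1 to 3 are ectodermal and are represented by 6 markers, which summed to 86.8 and 78.6 CPM in the mid-planula body and to 95.8, 62.4 and 67.5 CPM in the late planula body. Their sum was 521 to 641 CPM in the mid-planula apical libraries and 360 to 635 CPM in the late planula ones. The body libraries held 11.4% to 17.5% of the mean apical sum. The study places types 1 and 2 mainly in the apical region and found type 3 in all parts of the larva. For types 1 and 2, remaining apical tissue and gland cells of the body therefore cannot be told apart in these values. For type 3, the part of remaining apical tissue was not tested. None of the 6 was a DEG in edgeR, DESeq2 or limma-voom. Of them, 1 was higher and 2 were lower at an unadjusted p-value under 0.05 in edgeR (median log2 fold change -0.24). The type 1 marker *NVE22589* had 10.3 and 9.40 CPM in the mid-planula and 22.0, 15.1 and 16.8 CPM in the late planula, with no overlap (log2 fold change 0.87, SE 0.30, edgeR adjusted p = 0.155). The type 3 markers had lower values in the late planula. For *NVE23675* these were 17.3 and 13.3 against 7.52, 13.1 and 6.57 CPM, so that replicate 2 was close to the mid-planula libraries (log2 fold change -0.75, edgeR adjusted p = 0.239), and for *NVE23674* the stages overlapped (log2 fold change -0.67, edgeR adjusted p = 0.240). The other type 1 marker, *NVE12895*, and the type 2 markers *NVE11879* and *NVE8163* overlapped between the stages, and in all 3 replicate 2 had the lowest level of the 5 libraries. The log2 fold change of *NVE12895* was 0.11 under TMM and -0.27 under total counts, and that of *NVE8163* was 0.00.

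Marker genes of the apical organ were measured in the body libraries as well, where their level can come from remaining apical tissue or from the body itself, and these cannot be told apart. The 10 markers, 3 of the neuronal ring and 7 of the apical spot, summed to 160 and 218 CPM in the mid-planula body and to 154, 135 and 124 CPM in the late planula body, which is 4.62% to 8.12% of their mean sum in the apical libraries (range 1810 to 4350 CPM). The share differed widely between markers. In the mid-planula the body mean was 13.5% of the apical mean for *NVE4712* and 12.6% for *NVE8009*, but 1.56% for *ISX-like* (*NVE14554*) and 0.403% for *NVE27*, and in the late planula it was 0.404% and 0.171% for the latter genes. The body stages did not overlap in the sum. Its part in the DEGs of the body was not tested. Of the 10 genes, 1 fell and 9 did not pass the test in edgeR (0.65% of all tested gene models fell), 3 had an unadjusted p-value under 0.05, DESeq2 called 3 and limma-voom 0. In 4 of them all late planula libraries lay below both mid-planula libraries, compared with 17.6% of all genes. The median log2 fold change was -0.65 for the 10 genes and -1.56 for the 7 spot genes (all genes -0.0065).

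The spot gene *NVE10492* had 8 and 10 counts in the mid-planula body libraries and 0 counts in all 3 late planula body libraries. Taking 3 counts per library as the lowest level, the late planula body was at least 2.31-fold lower (edgeR adjusted p = 0.0194). The call rested on these few counts. It was lost without late planula body replicate 3 (edgeR adjusted p = 0.0923), with the replicate block (0.0734) and in limma-voom (adjusted p = 0.132). It was also lost without mid-planula body replicate 1 or 2, and with replicate 2 as the only late planula body library. In the apical tissue its mean was 12.0 CPM in the mid-planula and 12.5 CPM in the late planula. The test of whether the change differed between body and apical tissue did not pass (edgeR adjusted p = 0.188).

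*ISX-like* (*NVE14554*) encodes a homeodomain transcription factor of the spot. It had 3.73 and 9.04 CPM in the mid-planula body and 0.868, 2.78 and 1.02 CPM in the late planula body. Replicate 2 was the late planula library nearest to the mid-planula, and the stages did not overlap (log2 fold change -2.01, SE 0.49, edgeR adjusted p = 0.0505). The adjusted p-value was 0.0187 without replicate 2 and between 0.00243 (DESeq2) and 0.562 over 16 alternatives. The spot gene *NVE18750* was likewise lower in all late planula libraries, at 1.38 and 1.07 against 0.145, 0.383 and 0.626 CPM (log2 fold change -1.56, edgeR adjusted p = 0.0684, DESeq2 adjusted p = 0.0184). Among the ring genes, *PoxA* (*NVE14902*), a paired box gene, had 48.4 and 87.2 CPM in the mid-planula and 35.9, 36.8 and 31.4 CPM in the late planula (log2 fold change -0.97, edgeR adjusted p = 0.307).

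The other 6 apical markers gave no clear difference between the stages of the body. *Slc* (*NVE8226*), *NVE4712* (*KCTD1*), *NVE8009* (*TSP1*) and *NVE2235* overlapped between the stages. *NVE2832* (*TLL1*) was slightly higher in every late planula library, at 8.87 and 8.77 against 17.3, 10.1 and 8.99 CPM (log2 fold change 0.45, edgeR adjusted p = 0.565). *NVE27* reached at most 2 counts in a body library.

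The stage change of the body was then set beside that of the apical tissue, which was measured in separate libraries. Same-numbered body and apical libraries partly deviated together from their group means, so the comparisons may not be independent. In the apical tissue 455 gene models were DEGs between the stages (2.10%), 255 higher (1.18%) and 200 lower (0.922%) in the late planula. Of the 431 genes that rose in the body, 384 had an apical log2 fold change above 0 and 136 also rose there (31.6% of the body and 53.3% of the apical genes). Of the 141 that fell in the body, 134 had a negative apical log2 fold change and 62 also fell there (44.0% of the body and 31.0% of the apical genes). The body genes had a median apical log2 fold change of 1.12 where they rose and -1.19 where they fell, against 0.04 for all genes. Another 3 genes, *NVE17896*, *NVE253* and *NVE21815*, rose in the body and fell in the apical tissue.

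A test of whether the stage change itself differed between body and apical tissue, as an interaction in edgeR's quasi-likelihood test, called 5 gene models (0.0231%), and 875 had an unadjusted p-value under 0.05. None of the 5 has a name in the files or the study, and they were chosen by their values. All 5 rose in the body, where the stages did not overlap, and had lower levels in all late planula than in both mid-planula apical libraries. The part that body tissue left in the apical pieces had in these differences was not tested. The largest difference was that of *NVE21815*, which had 44.5 and 23.1 CPM in the mid-planula body and 233, 131 and 201 CPM in the late planula body (body log2 fold change 2.48, edgeR adjusted p = 0.0166). In the apical tissue it had 41 and 6 counts in the mid-planula and 2, 0 and 1 counts in the late planula, so that it was at least 5.19-fold lower there (interaction log2 difference 6.46, SE 0.92, edgeR adjusted p = 0.0445).

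*NVE17896* showed a similar pattern, with 33.3 and 40.3 CPM in the mid-planula body and 122, 87.7 and 138 CPM in the late planula body, while the apical libraries had 57 and 12 counts in the mid-planula and 3, 2 and 1 in the late planula (at least 7.91-fold lower, edgeR interaction adjusted p = 0.0144). *NVE253* rose in the body from 21.2 and 28.6 to 96.1, 90.1 and 92.7 CPM, replicate 2 lying slightly below the other late planula libraries, and had 15 and 19.3 against 8.37, 4.29 and 6.10 CPM in the apical tissue (edgeR interaction adjusted p = 0.0144). *NVE6370* had 2.10 and 1.61 CPM in the mid-planula body and 15.8, 11.8 and 15.1 CPM in the late planula body, 7.66-fold more on average (edgeR interaction adjusted p = 0.0144). *NVE3642* had 6.08 and 6.71 against 39.8, 26.7 and 30.3 CPM (edgeR interaction adjusted p = 0.0232). Replicate 2 was the lowest of the late planula body libraries in all 5 genes, and in each it was well above both mid-planula body libraries. Without late planula body replicate 2 there were still 5 genes with an interaction, but 0 without replicate 3 and 0 without mid-planula body replicate 1 or 2, where 658, 717 and 847 had an unadjusted p-value under 0.05 in edgeR.

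**Figure D5:**
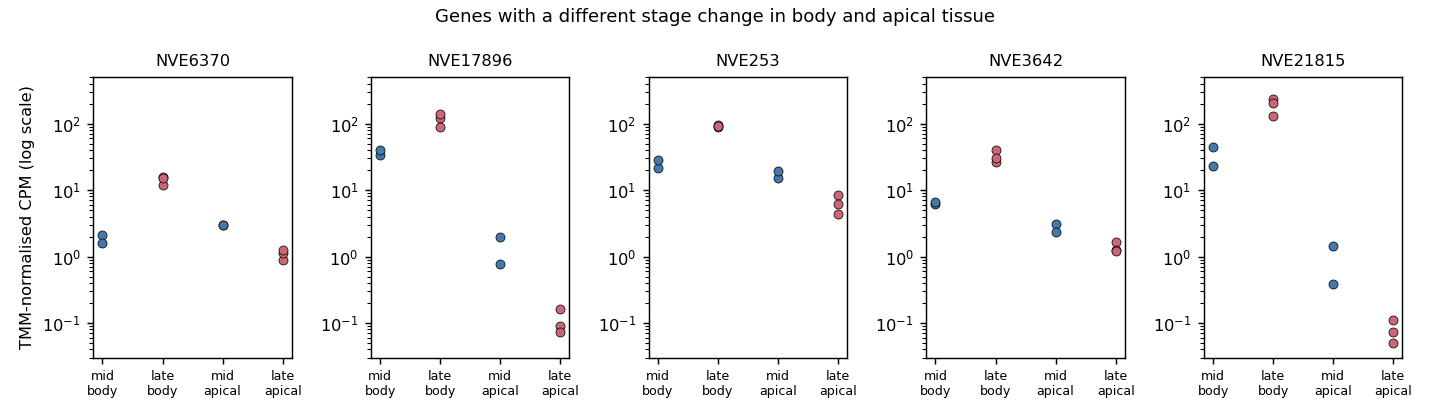
TMM-normalised CPM (y axis, log scale) of the 5 gene models with a stage by tissue interaction, one point per library in mid-planula body, late planula body, mid-planula apical and late planula apical tissue. In each gene the late planula points lie above the mid-planula points in the body and below them in the apical tissue, and a library with 0 counts is drawn at the lower end, as for *NVE21815*.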

How the data were processed

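Libraries were made with the SENSE mRNA-Seq kit and sequenced from both ends. By the methods of the study, the authors trimmed reads with Trimmomatic 0.36, mapped them with STAR and counted them per NVE gene model with HTSeq-count 0.6, and they deposited raw counts. The genome build and the strand setting are not given in the sources used here, so counts of overlapping or near-identical gene models are uncertain. Among counts of 1 to 20, 70.3% to 83.9% per body library were even, which could mean that both mates of a pair were counted. The counts printed, the floor of 3 included, would then stand for fewer molecules, so all counts were also halved as an alternative (*NVE10492* in the body: adjusted p = 0.0457, edgeR).

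The 10 libraries were fitted as 4 stage-by-tissue groups in edgeR 4.0.16 (R 4.3.3) with TMM and filterByExpr (minimum count 10, minimum total 15), and late was tested against mid-planula body by the quasi-likelihood test. log2 CPM used a prior count of 2. The alternatives used other scalings and filters, DESeq2 1.42.0, limma-voom (limma 3.58.1), halved counts, the body libraries alone, a replicate block and each body library left out. The replicate block groups libraries by number alone, across stages and tissues. The code was tested on simulated counts.

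The genes named are 35 that the study names or uses as markers, and the 2 largest increases and 2 largest decreases among DEGs whose stages did not overlap and whose mean level over the 10 libraries was no less than 1 log2 CPM. *NVE10492* is in both sets. The comparison, lists and genes were chosen with earlier results of these data known. No sequences were used here.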

Additional observations from a re-analysis of the deposited data

Results flagged for a closer look

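In 5 gene models the stage change differed between body and apical tissue, by an interaction test in edgeR adjusted over all tested genes. The log2 change in the body minus that in the apical tissue was 4.40 for *NVE6370*, 5.28 for *NVE17896*, 3.35 for *NVE253*, 3.32 for *NVE3642* and 6.46 for *NVE21815*. For *NVE17896* and *NVE21815* no late planula apical library exceeded 3 counts, so these estimates depend on how counts near 0 are fitted. Body tissue left in the apical pieces was not tested as a part of these differences. Groups of 2 and 3 libraries are too small to flag single libraries.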

How the results depend on the processing

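The body comparison gave 572 DEGs, and 1756 with the DESeq2 Wald test, 1063 with limma-voom, 63 with the replicate block and 5 with late planula body replicate 2 as the only late planula body library. It gave 0 to 558 with each body library left out in turn. The apical comparison gave 455, and 728 with total counts, 1488 with DESeq2 and 0 with the replicate block (2467 at an unadjusted p-value under 0.05 in edgeR), with 198 to 672 when body libraries were left out. The interaction gave 5, and 3 with total counts, 110 with DESeq2, 1 with limma-voom, 10 with no filter beyond 1 count, 3 with at least 10 counts in every library, 1 with the replicate block, and 0 with replicate 2 as the only late planula body library (909 unadjusted, edgeR), with 0 to 5 when libraries were left out. The other alternatives kept these counts within 1.5 times. The DEGs of the body that were still tested kept their direction in all 17 alternatives. Leaving out libraries could hardly change a direction, since no DEG of the body overlapped between the stages. With the 5 body libraries alone there were 501 DEGs, of which 397 were shared with the fit of 10 libraries.

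Same-numbered mid and late planula body libraries deviated in opposite directions from their group means (r = -0.341 and -0.340 across genes), so the numbers were not taken as pairs across stages. Body and apical libraries of a stage with the same number deviated together in the mid-planula (r = 0.155). So did late planula replicates 1 and 2 (0.235 and 0.49), but not replicate 3 (-0.0918). The labels do not say that they came from the same larvae. With 2 mid-planula libraries, unlike numbers give the same r with the opposite sign. In the late planula, body 1 with apical 3 (0.361) and body 3 with apical 2 (0.183) were also positive. The remaining late planula pairs of unlike number were negative (-0.129 to -0.507). With the stage and number as the replicate block, an alternative added after seeing the data, the interaction gave 45 DEGs, among them all 5 (adjusted p = 0.00158 to 0.00723, edgeR). The body comparison lies between such blocks, and cannot be tested within them. All 63 DEGs of the block were among the 572.

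Genes that were not DEGs and lay near 0 changed sign in some settings. *NVE8163* (0.00) was at 0.03 with DESeq2's size factors, upper-quartile factors and the Wald test, 0.02 with at least 10 counts and 0.01 with halved counts. *NVE18494*, *NVE19409* and *NVE12895* were at -0.31, -0.31 and -0.27 with total counts, *NVE12895* at -0.03 in limma-voom and *NVE8226* at 0.04 with the block. With replicate 2 as the only late planula library *NVE226*, *NVE10584* and *NVE12895* were at -0.39, -0.04 and -0.63. With single libraries left out the log2 fold changes ranged from -0.36 to 0.17 for *NVE334*, -0.18 to 0.26 for *NVE18494*, -0.14 to 0.21 for *NVE19409*, -0.21 to 0.23 for *NVE8163*, -0.21 to 0.10 for *NVE8226*, -0.48 to 0.06 for *NVE4712*, -0.17 to 0.88 for *NVE226* and -0.28 to 0.38 for *NVE12895*.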
